A study of Mus musculus with 6 samples.

Results

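Transcript levels of 10 cytokine, chemokine and signalling genes were examined in C2C12, a line of mouse myoblasts able to fuse into myotubes in low serum. The genes were Il6, Lif, Il11 and Clcf1, which encode ligands of the IL-6 family, the receptor gene Il6st, the feedback inhibitor gene Socs3, the CC chemokine genes Ccl2 and Ccl7, the colony-stimulating factor gene Csf1 and the IL-33 receptor gene Il1rl1. They were taken by name from 24809 genes in the table, and all 10 were found. RNA sequencing libraries with Msx1 overexpression (n = 3) were compared with control libraries (n = 3), which the table's headings call vector. Msx1 is a homeobox protein of embryonic mesenchyme that represses transcription. The labels give both groups as C2C12 myoblasts and do not say how Msx1 was introduced, whether the cells were clones or pools, at what density or stage they were harvested, or whether replicates were separate cultures. P-values therefore measure the spread between these libraries, which may be technical, and a difference in stage or density cannot be told apart from one caused by Msx1.

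Most IL-6 family cytokines share a signalling receptor chain, encoded by Il6st, which they engage with or without other chains, some of them common to several ligands. Binding activates JAK kinases and the transcription factor STAT3, which induces Socs3, whose product shuts the receptor complex down. Myoblasts and myotubes are known to make IL-6, LIF and the monocyte chemoattractants encoded by Ccl2 and Ccl7, and muscle uses them to regulate satellite cells and to call in monocytes after injury. Csf1 encodes the growth factor of macrophages, and Il1rl1 encodes ST2, the receptor of the alarmin IL-33, in a membrane-bound and a secreted decoy form.

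Il6 fell 41.5-fold with Msx1, Ccl7 fell 1.92-fold, Ccl2 1.86-fold and Il1rl1 2.27-fold, and Csf1 fell by a smaller amount. Il6st rose, Clcf1 did not pass the test, and Il11 was too low to be tested. Lif was called higher and Socs3 lower, but Lif lost its call when any of 4 libraries was left out and Socs3 lay at the edge of the threshold. Levels are FPKM (fragments scaled by transcript length and by the mapped fragments of the library) summed over the RefSeq transcripts of a gene. Changes are differences in log2(FPKM + 1), Msx1 minus control, with the moderated standard error (SE) and the Benjamini-Hochberg adjusted p of limma fitted over all tested genes, called at an adjusted p under 0.05.

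Of the 9 members tested, 6 were lower, 2 were higher and 1 was not called. Il6, called lower, passed the filter for testing (a mean of 0.5 FPKM) only through its control libraries. Of 12371 genes tested, 54.4% were called, 22.0% higher and 32.4% lower, so calls were common throughout the table. The groups did not overlap for 8 of the 9 tested members and for 62.3% of all tested genes. The median log2 change was -0.24 over the tested members and -0.07 over all tested genes. Decreases by 1 or more on the log2 scale were called for 3.35% of tested genes. Il6 was the member in that range, ranking 20 among all tested genes ordered from the largest decrease. Range and rank are for a pseudocount of 1, and with 0.1 Il1rl1 was also called in that range (log2 change -1.08). An exact permutation test (two-sided) returned p = 0.1 for each of the 8 members whose groups did not overlap, the smallest value possible with 3 against 3 libraries. The exact permutation p was 0.7 for Clcf1 and 0.2 for Il11.

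In control the levels ran, from highest to lowest, Csf1, Ccl7, Ccl2, Il6st, Socs3, Clcf1, Il6, Il1rl1, Lif and Il11, and of the neighbours in this order Lif and Il11 overlapped. In Msx1 libraries the order was Csf1, Ccl7, Il6st, Ccl2, Socs3, Clcf1, Lif, Il1rl1, Il11 and Il6, where Il11 and Il6 overlapped. Il6 thus went from the middle of the order to its end, and Il6st moved above Ccl2.

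**Figure D1:**
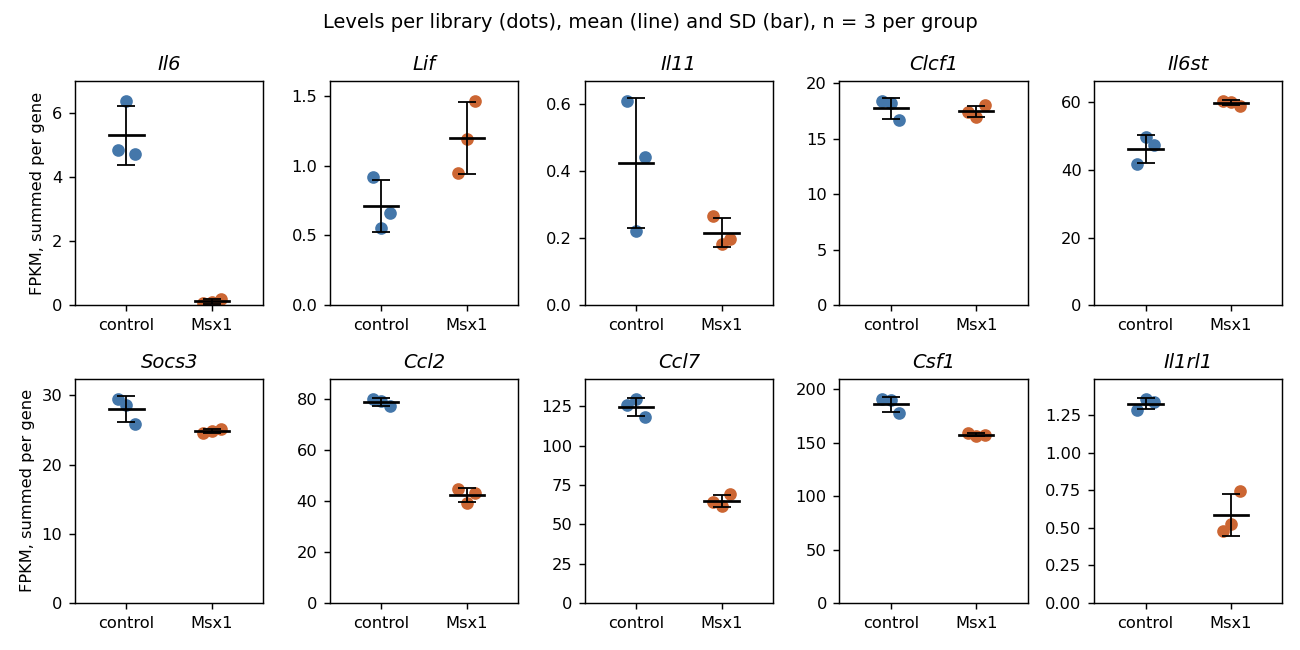
FPKM (y axis, linear from 0) of the 10 genes in the 3 control and 3 Msx1 libraries. Dots are libraries, the line is the mean and the bar is the SD. Control and Msx1 dots are apart for all genes but Il11 and Clcf1, and the Il6 dots of Msx1 libraries lie near 0.

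Msx1 itself stood at 7.99, 7.13 and 7.54 FPKM in control and at 1004, 943.7 and 912 FPKM in Msx1 libraries, which checks the labels. Total FPKM per library ran from 390439 to 441835, and roughly 18.9 to 24.3 M fragments (M, mega) lay behind a library as estimated from the steps of low values. Of 8 myoblast markers, 7 averaged at least 1 FPKM, among them Myod1, Pax7 and Des, and the list summed to 216 to 219 FPKM in control and 184 to 194 FPKM in Msx1 libraries, most of it Des. Of the 7 tested 2 were higher (Myog and Pax7), 3 lower (Myf5, Des and Chrna1) and 2 not called (Myod1 and Cdh15). Calls over all tested genes were 22.0% higher and 32.4% lower. Pax7 rose from 9.21 ± 0.573 to 11.4 ± 0.751 FPKM (adjusted p = 0.0114). Des fell from 140.1 ± 0.668 to 116.1 ± 4.89 FPKM (adjusted p = 0.00278; SD, n = 3 each). Myf5, a factor of undifferentiated myoblasts, fell 5.49-fold from 9.01 ± 0.396 to 1.64 ± 0.097 FPKM (adjusted p = 2.77e-07), and Myog, the myogenin gene of differentiating myoblasts, rose 2.08-fold from 2.76 ± 0.469 to 5.75 ± 0.153 FPKM (adjusted p = 1.71e-04; SD, n = 3 each). Of 12 leukocyte and macrophage markers 3 averaged at least 1 FPKM (Cd14, Lyz2 and Cd68), with 1 of 4 tested genes of the list higher and 3 lower. The other tested gene, Coro1a, passed the 0.5 FPKM filter only through its control libraries. The whole list summed to 32.4 to 34.7 FPKM in control and 33.3 to 38.9 FPKM in Msx1 libraries. The defining markers Ptprc, Adgre1 and Tyrobp were listed at 0 in all 6 libraries. Endothelial markers were too low to be tested and summed to 0.261 to 0.273 FPKM in control and 0.523 to 0.948 FPKM in Msx1 libraries. Fibroblast markers, many of which myoblasts also express, summed to 717 to 815 FPKM in control and 537 to 551 FPKM in Msx1 libraries, most of it Col3a1, but of the 4 tested 2 were higher and 2 lower. Dcn, the decorin gene, rose 17.7-fold from 5.07 ± 1.35 to 89.7 ± 5.51 FPKM (adjusted p = 3.26e-07), while Col3a1 fell from 723.5 ± 46.2 to 417 ± 8.39 FPKM (SD, n = 3 each). Markers with values here were named after these were seen. The part of these markers in the cytokine changes was not tested. In bulk RNA, fewer cells of a type and less RNA per cell cannot be told apart.

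Stretches before the start sites of 4 members are shown. Each held a match to a motif searched for, and their calls differed in direction. Il6st, which was called higher in all 17 alternatives, held no match and is not shown. Il6, Csf1 and Il1rl1 were called lower, and Lif was called higher in a call that not every alternative kept. The stretches are RefSeq sequence of GRCm38.p6, up to 250 bases before the annotated start, cut where an annotated exon begins. Capitals mark matches, on either strand, to the NF-kappaB consensus (named only), to AP-1 (TGANTCA) or to a homeobox core (TAATTG). Searches for STAT (TTCNNNGAA) and TATA box (TATAAA) motifs gave no match in these 4. Of the 10 genes 7 had a promoter entry. Clcf1, Ccl2 and Ccl7 had none.
Il6 (chr5:30012864-30013113, plus strand): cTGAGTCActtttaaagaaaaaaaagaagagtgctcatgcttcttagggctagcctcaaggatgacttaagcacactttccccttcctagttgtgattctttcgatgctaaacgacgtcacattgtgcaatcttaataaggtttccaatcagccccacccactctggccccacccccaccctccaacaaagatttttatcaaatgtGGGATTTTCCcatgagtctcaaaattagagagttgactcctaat
Lif (chr11:4257318-4257556, plus strand): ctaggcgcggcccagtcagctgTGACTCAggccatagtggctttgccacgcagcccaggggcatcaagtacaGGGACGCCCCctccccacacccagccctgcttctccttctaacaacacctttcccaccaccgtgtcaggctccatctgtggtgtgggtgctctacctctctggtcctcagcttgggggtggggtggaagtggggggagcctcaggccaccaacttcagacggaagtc
Csf1 (chr3:107760470-107760719, minus strand): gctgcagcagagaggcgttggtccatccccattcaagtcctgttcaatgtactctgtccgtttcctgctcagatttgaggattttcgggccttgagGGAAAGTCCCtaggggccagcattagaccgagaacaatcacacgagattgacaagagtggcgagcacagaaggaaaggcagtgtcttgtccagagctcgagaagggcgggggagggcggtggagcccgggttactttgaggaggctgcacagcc
Il1rl1 (chr1:40439379-40439626, plus strand): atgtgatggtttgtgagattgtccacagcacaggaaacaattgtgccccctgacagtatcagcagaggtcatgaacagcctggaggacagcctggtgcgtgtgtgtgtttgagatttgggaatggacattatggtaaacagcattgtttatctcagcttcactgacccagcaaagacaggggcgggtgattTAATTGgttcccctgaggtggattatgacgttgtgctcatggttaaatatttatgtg

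The Il6 stretch held an NF-kappaB match, GGGATTTTCC, from base -44 to -35 and an AP-1 match, TGAGTCA, from -249 to -243, counted back from -1 just before the RefSeq start. The Lif stretch held the same pair of motifs, with GGGACGCCCC from -178 to -169 and TGACTCA from -228 to -222. That stretch lies before the start of transcript NM_008501 (base 4257557). The other Lif transcript, NM_001039537, starts downstream at base 4267095. NM_001039537 held 69.9%, 1.8% and 85.2% of Lif FPKM in control and 50.6%, 70.1% and 68.5% in Msx1 libraries. The stretch printed for Lif stops 11 bases short of the RefSeq start, and that for Il1rl1 2 bases short, where a GENCODE exon begins. Il6 was called lower and Lif higher in Msx1 libraries, and 5 of 16 alternatives did not keep the Lif call. The part of the NF-kappaB and AP-1 motifs in either change was not tested. The Csf1 stretch held an NF-kappaB match on the opposite strand, printed as GGAAAGTCCC, from -154 to -145. A homeobox core, the type of sequence that Msx proteins recognise, was found from -59 to -54 before the start of the long Il1rl1 transcript. Among 32851 promoters of the same length, 7.25% held the NF-kappaB motif, 6.75% the AP-1 motif and 7.17% the homeobox core. Outside the 4 stretches shown, Socs3 held a STAT match, TTCTTAGAA, from -154 to -146, a motif found in 7.02% of promoters. Of the 250 bases of the Socs3 window (117969367 to 117969616, minus strand) 77 were exonic, the match not among them. The window lies inside the RefSeq span of Socs3. It also lies farther upstream of the GENCODE start of its transcript NM_007707 (base 117969186) than these positions say. Il11 held an AP-1 match, TGAGTCA, from -98 to -92 before the start of its measured transcript. Il6st, which rose, held none of the 5 motifs in this window, nor did the window before the upstream start of Il1rl1. A match describes letters and not a bound site.

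Il6 (chromosome 5, 30013114 to 30019975, GRCm38) encodes the pleiotropic cytokine that gives the family its name. Its level was 4.83, 6.35 and 4.71 FPKM in control and 0.0596, 0.115 and 0.208 FPKM in Msx1 libraries. The groups were far apart, and the 3 Msx1 libraries were all near 0. The log2 change was -2.47 (SE 0.11, adjusted p = 1.19e-06), and it was -4.61 with a pseudocount of 0.1 in place of 1, since a pseudocount shrinks the change of low genes. Roughly 1.5, 3.0 and 5.1 fragments of its main transcript stand behind the Msx1 values, against 116, 137 and 122 in control. For that transcript, the ratio of control to Msx1 from these estimates was 37.7, with a 95% exact interval of 20.3 to 79.3 that covers counting error only and rests on rough depths. The second RefSeq transcript was listed at 0.396, 0 and 0.321 FPKM in control and at 0 in all Msx1 libraries.

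Lif (chromosome 11, 4257568 to 4272514), the leukaemia inhibitory factor gene, went the other way at a low level. It read 0.919, 0.556 and 0.659 FPKM in control and 0.946, 1.19 and 1.46 FPKM in Msx1 libraries. The groups did not overlap, although control replicate 1 and Msx1 replicate 1 nearly met. Lif rose 1.69-fold (log2 change 0.36, SE 0.12, adjusted p = 0.0299), but the call was lost without control replicate 2 (adjusted p = 0.0848), control replicate 3 (0.0859), Msx1 replicate 2 (0.0707) or Msx1 replicate 3 (0.0951), and with its most abundant transcript alone (0.217). With a pseudocount of 0.1 the change was 0.68 (adjusted p = 0.0318), and over all alternatives adjusted p ran from 0.00315 to 0.217.

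Il11 (chromosome 7, 4772373 to 4782907), whose product acts on stromal and haematopoietic cells, averaged 0.319 FPKM over the 6 libraries, below the 0.5 FPKM needed for testing. It read 0.606, 0.22 and 0.442 FPKM in control and 0.265, 0.183 and 0.198 FPKM in Msx1 libraries, and the groups overlapped. In a fit without the filter its log2 change was -0.22 (adjusted p = 0.136). From 8.1 to 27.1 estimated fragments stand behind these values, and the control values differed among themselves by more than the group means did.

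Clcf1 (chromosome 19, 4214238 to 4223505), encoding cardiotrophin-like cytokine factor, was the most abundant ligand gene among the 4 and hardly differed between groups. It read 18.3, 18.2 and 16.7 FPKM in control and 17.4, 17.0 and 18.0 FPKM in Msx1 libraries. The log2 change was -0.02 with a 95% interval of -0.16 to 0.11 (adjusted p = 0.764), and its sign changed with the scaling. Its transcripts were apportioned unevenly. NM_001310039 held 3.04%, 13.2% and 40.2% of Clcf1 FPKM in control and 4.47%, 2.17% and 7.91% in Msx1 libraries. Control replicate 3 stood apart in this share, and in the sum over transcripts it was the lowest of all libraries (16.7 FPKM).

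Among 11 IL-6 family genes encoding ligands or a subunit of one, 5 were tested, of which 3 fell, 1 rose and 1 was not called, with a median log2 change of -0.81. Over all tested genes 32.4% were called lower and 22.0% higher. Il6, among the genes that fell, passed the 0.5 FPKM filter only through its control libraries. Cntf, the ciliary neurotrophic factor gene, read 5.82, 5.94 and 3.66 FPKM in control and 0.9498, 0.886 and 1.44 FPKM in Msx1 libraries. It fell 4.70-fold (log2 change -1.54, SE 0.17, adjusted p = 1.53e-04). Ctf1, encoding cardiotrophin-1, fell from 8.53 ± 0.676 (SD, n = 3) to 4.42 ± 0.170 FPKM (SD, n = 3), 1.93-fold. Osm, Il27 and Il31 were listed at 0 in all libraries. Of the FPKM summed over the 10 genes encoding ligands of the family (the subunit gene Ebi3 left out), Il6 held 13.9% ± 1.86 in control and 0.515% ± 0.284 in Msx1 libraries, and Clcf1 held 46.8% ± 1.78 and 71.2% ± 1.05 (SD, n = 3 each). Cntf, Il6 and Ctf1 were lower while Clcf1 did not pass, and the sum went from 38.0 ± 3.38 to 24.5 ± 1.07 FPKM.

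Il6st (chromosome 13, 112464070 to 112506860) encodes the shared receptor chain. It read 41.7, 49.7 and 47.4 FPKM in control and 60.3, 60.2 and 59.0 FPKM in Msx1 libraries, where the 3 values lay close together above all control values. Il6st rose 1.29-fold (log2 change 0.37, SE 0.07, adjusted p = 0.00249), and it kept its direction and call in all 17 alternatives.

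The other receptor chains of the family moved in both directions. Il6ra, which encodes the chain that binds IL-6, read 4.46, 5.26 and 5.22 FPKM in control and 21.8, 23.3 and 20.2 FPKM in Msx1 libraries. It rose 4.37-fold (log2 change 1.93, SE 0.08, adjusted p = 7.29e-07) in the cells in which Il6 was near 0. Lifr, the LIF receptor gene, fell from 18.5 ± 2.23 to 13.6 ± 0.845 FPKM (SD, n = 3 each; log2 change -0.42, adjusted p = 0.00534). Il11ra1, the IL-11 receptor gene, went from 14.0 ± 0.526 to 15.9 ± 0.520 FPKM (log2 change 0.17, adjusted p = 0.027). That call was lost under the replicate block (0.0506) and without any library other than control replicate 1 (0.0594 to 0.11), and with equal totals without Msx1 the change was 0.28. Osmr, the oncostatin M receptor gene, was at 44.2 ± 6.58 and 39.8 ± 2.12 FPKM and not called (log2 change -0.14, adjusted p = 0.295), though it was called lower without control replicate 1 (adjusted p = 0.0164; range 0.0164 to 0.877 over the alternatives). Il27ra was at 2.68 ± 0.215 and 2.34 ± 0.115 FPKM and was not called either. In all, 3 of 6 tested receptor genes rose, 1 fell and 2 were not called, with a median of 0.02. Of all tested genes, 22.0% were called higher and 32.4% lower. The ratio of Il6ra to Il6st FPKM was 0.107, 0.106 and 0.11 in control and 0.362, 0.387 and 0.342 in Msx1 libraries. An exact two-sided permutation test of this ratio gave p = 0.1, the smallest possible, and adjusted p = 0.15 over 3 ratios.

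**Figure D2:**
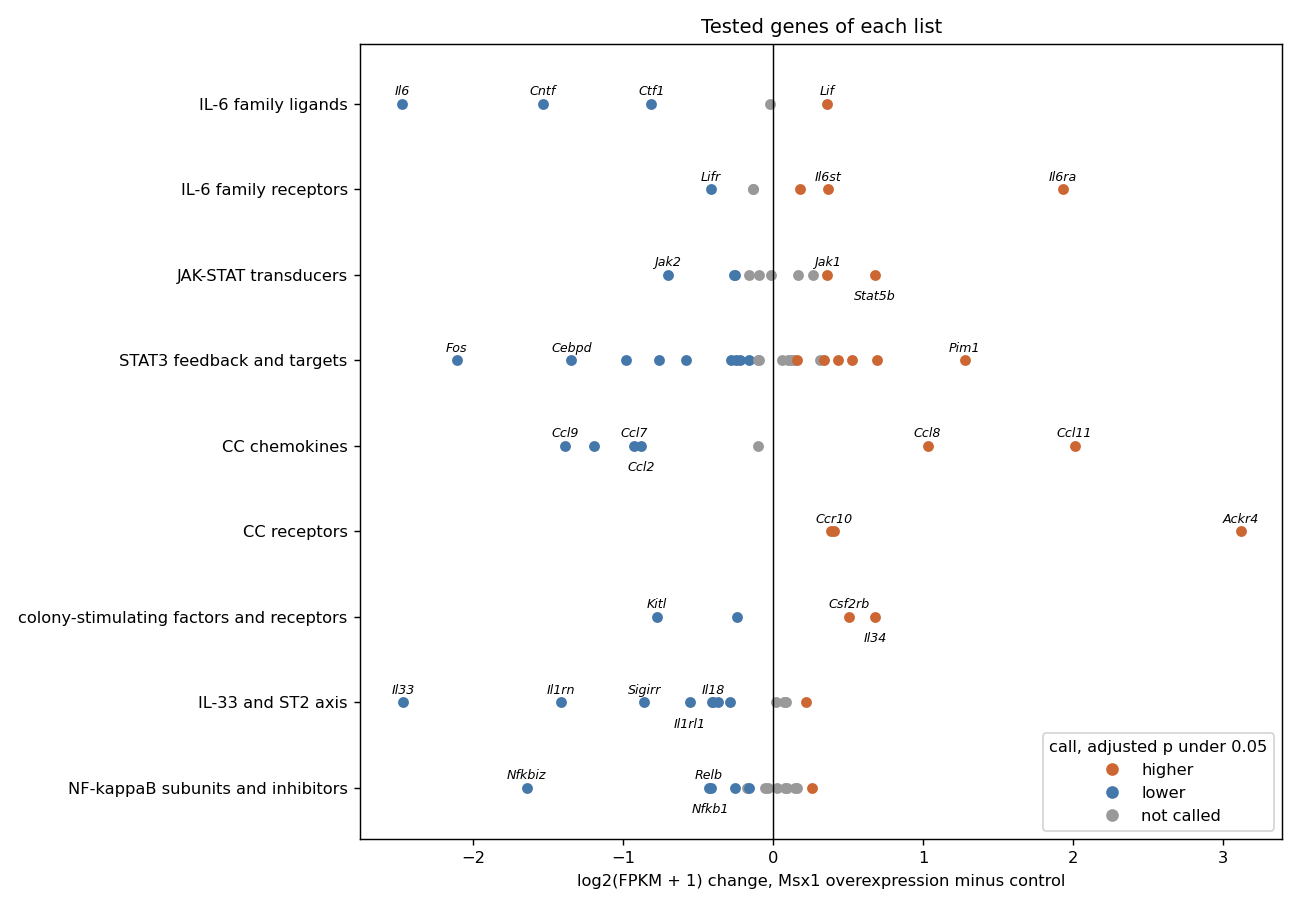
Log2(FPKM + 1) change, Msx1 minus control (x axis), of the tested genes of 9 lists (y axis). Each dot is a gene, coloured by its call at an adjusted p under 0.05. Il6 (-2.47), Il33 (-2.47) and Fos (-2.11) lie farthest to the left, and Ackr4 (3.11), Ccl11 (2.01) and Il6ra (1.93) farthest to the right.

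JAK kinases, STAT factors and Ptpn11 gave 10 tested genes, with 2 higher, 3 lower and 5 not called (median -0.05). These counts were near the shares over all tested genes, 22.0% higher and 32.4% lower. Jak1, the kinase bound to the shared chain, rose from 40.4 ± 3.56 to 52.0 ± 1.49 FPKM (log2 change 0.36), while Jak2 fell from 24.0 ± 3.46 to 14.3 ± 1.28 FPKM (log2 change -0.70; SD, n = 3 each). Stat5b (mean 11.5 ± 0.208 against 19.0 ± 0.708 FPKM with Msx1) rose by 0.68 on the log2 scale (adjusted p = 2.08e-05). Stat3, the main effector of the family, read 39.4, 44.7 and 63.5 FPKM in control and 54.4, 53.6 and 53.9 FPKM in Msx1 libraries, so its control values spanned those of the Msx1 libraries. It was not called (log2 change 0.16, adjusted p = 0.399). Without control replicate 3 it was called higher (log2 change 0.36, adjusted p = 0.0062; range 0.0062 to 0.915).

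Socs3 (chromosome 11, 117966079 to 117970336), the inhibitor induced by STAT3, read 29.5, 28.7 and 25.8 FPKM in control and 24.6, 24.9 and 25.2 FPKM in Msx1 libraries. The groups were apart by less than 1 FPKM. The change of -0.16 on the log2 scale (SE 0.06) had an adjusted p of 0.049, and 13 of 17 alternatives did not pass, with adjusted p from 0.0184 to 0.504. With equal totals without Msx1 the change was -0.05, with sample weights -0.07 and with median-of-ratios scaling -0.09. STAT3 targets and feedback genes were tested for all 22 on the list, and 6 of them were higher, 9 lower and 7 not called, with a median of -0.02. The shares over all tested genes were 22.0% higher and 32.4% lower. Pim1, a kinase gene induced by STAT factors, rose from 6.42 ± 0.502 to 17.0 ± 0.662 FPKM (SD, n = 3 each; log2 change 1.28, adjusted p = 2.62e-06). Cebpd fell from 58.3 ± 8.37 to 22.2 ± 0.929 FPKM (log2 change -1.35) and Fos, an immediate early gene, from 15.4 ± 4.16 to 2.74 ± 0.413 FPKM (log2 change -2.11).

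Ccl2 and Ccl7 lie next to each other on chromosome 11 (82035577 to 82037452 and 82045712 to 82047525) and encode chemoattractants of monocytes. Ccl2 read 79.8, 79.2 and 77.1 FPKM in control and 44.5, 39.2 and 43.0 FPKM in Msx1 libraries. Ccl7 read 126, 130 and 118 FPKM in control and 64.2, 61.3 and 69.2 FPKM in Msx1 libraries. In both genes every Msx1 library was well below every control library. Ccl2 fell 1.86-fold (log2 change -0.88, SE 0.06, adjusted p = 7.95e-06) and Ccl7 1.92-fold (log2 change -0.93, SE 0.06, adjusted p = 9.45e-06), and both kept their call in all 17 alternatives. The ratio of Ccl7 to Ccl2 FPKM was 1.57, 1.64 and 1.53 in control and 1.44, 1.56 and 1.61 in Msx1 libraries. The groups overlapped in this ratio, whose log2 difference was -0.04 (exact two-sided permutation test, p = 0.6, adjusted p = 0.6 over 3 ratios, which were chosen after levels were seen).

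Their neighbours differed in direction. In map order, Ccl11, Ccl12, Ccl8 and Ccl1 follow Ccl7. Ccl11, encoding the eosinophil attractant eotaxin, read 1.54, 1.09 and 2.54 FPKM in control and 9.59, 9.29 and 10.2 FPKM in Msx1 libraries (log2 change 2.01, SE 0.17, adjusted p = 3.51e-05). Ccl8, another CC chemokine gene of the cluster, read 11.99, 12.8 and 13.5 FPKM in control and 29.4, 25.3 and 26.5 FPKM in Msx1 libraries. It rose 2.12-fold (log2 change 1.03, SE 0.07, adjusted p = 1.11e-05). Ccl12 was listed at 0 throughout, and Ccl1 in all libraries but Msx1 replicate 3 (0.0942 FPKM). Within the 6 genes of the cluster, the first pair in map order was lower and Ccl11 and Ccl8 were higher.

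**Figure D3:**
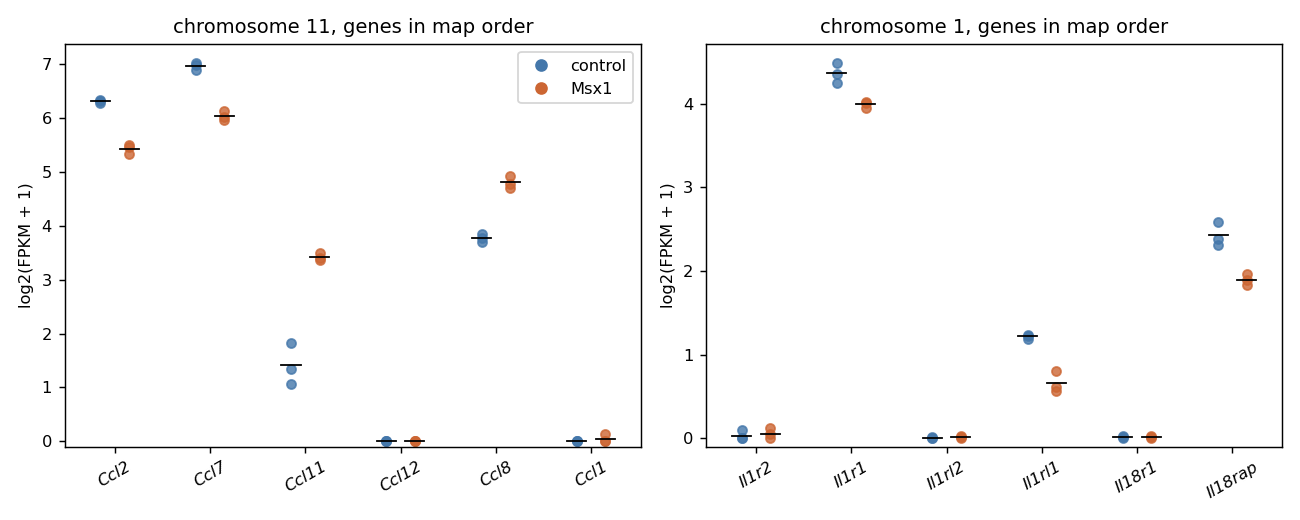
Levels as log2(FPKM + 1) (y axis) of the genes around Ccl2 and Ccl7 (left) and around Il1rl1 (right), in map order. Dots are libraries and lines are means (n = 3 per group). Ccl2 and Ccl7 are lower and Ccl11 and Ccl8 higher in Msx1 libraries, and Il1r1, Il1rl1 and Il18rap are lower.

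Of 24 CC chemokine genes 11 were listed at 0 in all libraries and 7 were tested, of which 4 fell, 2 rose and 1 was not called, with a median of -0.88. Over all tested genes 32.4% were called lower and 22.0% higher. Ccl9, among the genes that fell, passed the 0.5 FPKM filter only through its control libraries. Beside Ccl2 and Ccl7, the lower genes were Ccl9 and Ccl5. Ccl9 fell from 2.17 ± 0.174 to 0.209 ± 0.041 FPKM (SD, n = 3 each; log2 change -1.39, and -2.88 with a pseudocount of 0.1). Ccl5 fell from 9.53 ± 1.67 to 3.58 ± 0.549 FPKM (log2 change -1.19) and Ccl25 was not called at 1.01 ± 0.280 and 0.861 ± 0.091 FPKM. These last 2 were named after their values were seen. Summed FPKM of the family was 231 ± 4.58 in control and 149 ± 7.96 in Msx1 libraries. Ccl7 held 53.8% ± 1.47 and 43.5% ± 1.28 of it, Ccl2 34.0% ± 0.284 and 28.3% ± 0.768, and Ccl8 5.51% ± 0.410 and 18.1% ± 1.09 (SD, n = 3 each).

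Ccr2, the receptor of both Ccl2 and Ccl7, was listed at 0 in all 6 libraries. Of 13 receptor genes of CC chemokines 6 were listed at 0 throughout and 3 were tested. All 3 were called higher, as were 22.0% of all tested genes, but Ccrl2 passed the 0.5 FPKM filter only through its Msx1 libraries. Ackr4, encoding an atypical receptor that removes chemokines without signalling, read 1.81, 2.30 and 1.77 FPKM in control and 23.4, 24.5 and 25.7 FPKM in Msx1 libraries. It rose 12.5-fold (log2 change 3.11, SE 0.08, adjusted p = 8.51e-08). Ccr10 went from 0.890 ± 0.236 up to 1.49 ± 0.064 FPKM (log2 change 0.40, adjusted p = 0.0112; 0.71 with a pseudocount of 0.1), and Ccrl2 increased from 0.461 ± 0.159 to 0.911 ± 0.261 FPKM (adjusted p = 0.0286). The genes called higher numbered 2, with Ccrl2 no longer called, without control replicate 2, control replicate 3 or Msx1 replicate 1 and with the most abundant transcript. Ccrl2 was named after its values were seen.

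Csf1 (chromosome 3, 107741048 to 107760469) was the most abundant of the 10 genes. It read 191, 190 and 178 FPKM in control and 159, 156 and 158 FPKM in Msx1 libraries, and every Msx1 library was below every control library. Csf1 fell 1.18-fold (log2 change -0.24, SE 0.05, adjusted p = 0.00514), a call lost with equal totals without Msx1 (log2 change -0.13, adjusted p = 0.0739; range 0.00117 to 0.0739 over the alternatives). The main transcript, NM_007778, held 85.5% to 86.5% of Csf1 FPKM in every library and fell as well (log2 change -0.24, adjusted p = 0.00773 over 17764 transcripts, of which 32.3% were called). NM_001113529 fell from 14.4 ± 1.16 to 10.3 ± 1.11 FPKM (log2 change -0.45, adjusted p = 0.0168). NM_001113530 was at 11.8 ± 0.853 and 11.7 ± 1.35 FPKM and was not called (adjusted p = 0.91; SD, n = 3 each).

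The other ligand of the same receptor, Il34, changed in the opposite direction. It read 6.56, 6.23 and 6.34 FPKM in control and 10.7, 10.9 and 10.9 FPKM in Msx1 libraries (log2 change 0.68, SE 0.05, adjusted p = 2.26e-05). The ratio of Csf1 to Il34 FPKM was 29.1, 30.5 and 28.1 in control. In Msx1 libraries the Csf1 to Il34 ratio was 14.8, 14.4 and 14.5 (exact two-sided permutation test, p = 0.1, adjusted p = 0.15 over 3 ratios). Csf1r, their receptor gene, averaged 0.243 FPKM and was below the level for testing. Csf2 and Il3 were listed at 0. Kitl, the stem cell factor gene, fell from 26.7 ± 5.21 to 15.1 ± 1.22 FPKM (log2 change -0.78), and Csf2rb, the common beta receptor gene, rose from 14.5 ± 2.54 to 20.9 ± 1.55 FPKM (log2 change 0.51, and 0.32 with sample weights; SD, n = 3 each). Of the 11 colony-stimulating factor and receptor genes 4 were tested, 2 of which rose and 2 fell. Calls in either direction were made for 54.4% of all tested genes.

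Il1rl1 (chromosome 1, 40404864 to 40465418) was low in all libraries. It read 1.28, 1.36 and 1.34 FPKM in control and 0.481, 0.524 and 0.743 FPKM in Msx1 libraries, with no overlap and a tight control group. Il1rl1 fell 2.27-fold (log2 change -0.56, SE 0.09, adjusted p = 8.71e-04; -1.08 with a pseudocount of 0.1) and was called lower in all 16 alternatives that tested it. The short transcript NM_010743, which encodes the secreted form, held 80.8% to 83.6% of Il1rl1 FPKM in control and 83.2% to 90.6% in Msx1 libraries. It fell from 1.09 ± 0.011 to 0.515 ± 0.140 FPKM (SD, n = 3 each; log2 change -0.47, adjusted p = 0.028). The long transcript NM_001025602, which encodes the membrane receptor, was at 0.240 ± 0.027 and 0.067 ± 0.016 FPKM and below the level for testing. From 6.1 to 32.1 estimated fragments stand behind each of its values. The transcript that starts upstream at base 40429570 was listed at 0 in all libraries.

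**Figure D4:**
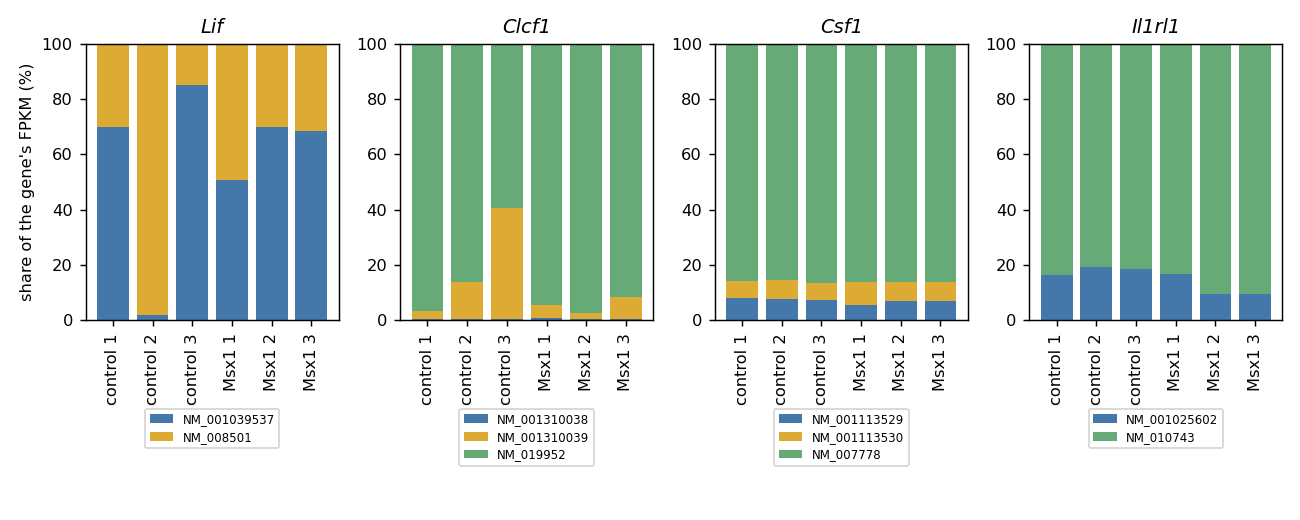
Share of a gene's FPKM (y axis, percent) held by each of its RefSeq transcripts in the 6 libraries (x axis) for Lif, Clcf1, Csf1 and Il1rl1. Shares of Csf1 are nearly the same in every library, while those of Lif and Clcf1 differ among the control libraries.

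In the cluster of IL-1 receptor genes on chromosome 1, Il1r1 lies before Il1rl1 and Il18rap after it, with other genes between. Il1r1 was at 19.6 ± 1.71 and 14.9 ± 0.438 FPKM (log2 change -0.37, adjusted p = 0.00255) and Il18rap at 4.40 ± 0.554 and 2.73 ± 0.181 FPKM (log2 change -0.53, adjusted p = 0.00146; SD, n = 3 each). Both fell. They were named for their place and not by level. Il1r2, Il1rl2 and Il18r1 did not reach 0.1 FPKM in any library.

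Il33, which encodes the ligand of ST2, read 38.0, 52.1 and 50.9 FPKM in control and 7.33, 7.87 and 7.60 FPKM in Msx1 libraries. It fell 6.19-fold (log2 change -2.47, SE 0.11, adjusted p = 1.27e-06). Il1rap, the co-receptor gene, was at 3.42 ± 0.590 and 3.61 ± 0.231 FPKM and was not called (log2 change 0.07, adjusted p = 0.607). The list around IL-33 and ST2 also held IL-1 and IL-18 genes, among them Il1r1, Il1rn and Il18. Of its 12 tested genes 8 fell, 1 rose and 3 were not called, with a median of -0.39. Among those that fell, Il1rn passed the 0.5 FPKM filter only through its control libraries. Over all tested genes 32.4% were called lower and 22.0% higher. The gene that rose, Traf6, which encodes a signalling adaptor, was named after its values were seen (4.81 ± 0.234 and 5.76 ± 0.280 FPKM, log2 change 0.22, adjusted p = 0.0223; SD, n = 3 each). No gene of the list was called higher without control replicate 3, Msx1 replicate 1 or Msx1 replicate 2 or with the most abundant transcript, and 2 were with equal totals without Msx1. Il1rn, the interleukin-1 receptor antagonist gene, fell from 1.90 ± 0.229 to 0.081 ± 0.010 FPKM (log2 change -1.42, and -3.46 with a pseudocount of 0.1), and Il18 from 10.9 ± 0.668 to 7.99 ± 0.524 FPKM (log2 change -0.40). Sigirr, an inhibitory receptor gene of the family, fell from 1.72 ± 0.176 to 0.501 ± 0.132 FPKM (log2 change -0.86, and -1.62 with a pseudocount of 0.1; SD, n = 3 each).

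NF-kappaB is a known activator of Il6, Ccl2, Ccl7 and Csf1. Its subunits and regulators gave 14 tested genes, with 5 lower, 1 higher and 8 not called, with a median of -0.05. For all tested genes the shares were 32.4% lower and 22.0% higher. The gene that rose was Ikbkg, named after its values were seen (14.7 ± 0.651 and 17.7 ± 0.567 FPKM; SD, n = 3 each), and none was called higher with the most abundant transcript. The balance turned with the scaling: 4 were lower and 4 higher with median-of-ratios scaling, 4 lower and 3 higher with quantile normalization, and 3 lower and 5 higher with equal totals without Msx1. Nfkbiz, encoding a nuclear cofactor needed for Il6 induction in macrophages, read 18.8, 23.3 and 20.4 FPKM in control and 6.59, 6.12 and 5.20 FPKM in Msx1 libraries. It fell 3.49-fold (log2 change -1.65, SE 0.10, adjusted p = 5.32e-06). Nfkb1 fell from 44.0 ± 1.13 to 32.7 ± 1.43 FPKM (log2 change -0.42) and Relb from 15.2 ± 1.05 to 11.0 ± 0.940 FPKM (log2 change -0.43; SD, n = 3 each), the latter not called with its most abundant transcript alone (log2 change -1.59, adjusted p = 0.21; range 4.95e-04 to 0.21 over the alternatives). Over the 9 lists, the 125 genes other than the 10 members gave 74 tested genes, 19 of them higher, 29 lower and 26 not called, with a median of -0.07. Beside these stand 22.0% higher and 32.4% lower over all tested genes, whose median was also -0.07.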

How the data were processed

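The authors deposited FPKM per RefSeq transcript, 1 column per sample. Reads were trimmed, aligned and quantified with tools that the submitters' processing notes list as Trimmomatic, HISAT2 and StringTie, on GRCm38 (mm10). Their versions were not given in the sources used here. Trizol RNA and a NEBNext Ultra library kit, whose name marks no strand, were used per the labels' protocols. Columns headed by a vector were matched by number to the control samples.

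Of 38468 transcripts, 38188 received a symbol from RefSeq and 161 from GENCODE tables, and 119 kept their identifier. FPKM were summed to 24809 genes. StringTie apportions reads among overlapping transcripts by estimation, so shares of single transcripts are uncertain. Il11 overlaps Tmem190 (at most 0.38 FPKM), and Clcf1 overlaps Gm45928 (at most 1.12 FPKM). Il6 overlaps the antisense gene A230098N10Rik in the annotation, and reads of overlapping genes cannot be told apart without strand. Genes averaging 0.5 FPKM or more were tested on log2(FPKM + 1) by limma 3.58.1 (R 4.3.3) with a trended prior variance and no block. The procedure was tested on simulated data. Depth was estimated from the steps of low values within a preset window (32.3% to 37.2% lay within 0.1 of a whole multiple), so fragment numbers are rough and whole reads were not recovered.

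Members and lists were chosen with earlier results of these data known. Genes named are the 10 members, 11 others set by name (among them Msx1, Il6ra and Il33), and up to 3 more per list with the smallest adjusted p and at least 1 FPKM in the higher group. Exceptions are stated. A gene of the ligand list is not reported here and was left out of the list counts. Alternatives were pseudocounts, filters, scalings, a block, sample weights, no variance trend, leaving out each library and the most abundant transcript.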

Additional observations from a re-analysis of the deposited data

How the results depend on the processing

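Of 40 named genes tested, 31 kept their direction and their side of the threshold in every alternative that tested them, among them Il6, Il6st, Ccl2, Ccl7, Il1rl1, Il6ra and Il33. Of the members, 6 were called lower and 2 higher. Members called higher numbered 1 with a mean of at least 2 FPKM, where Lif was not tested, and 1 with the most abundant transcript, and 1 to 2 when each library was left out. Members called lower numbered 4 with equal totals without Msx1 and 5 or 6 in the other alternatives. Genes called higher and lower numbered 2718 and 4014 with FPKM as deposited, 3321 and 3154 with median-of-ratios scaling, 3073 and 3633 with quantile normalization and 3503 and 2807 with equal totals without Msx1, so the higher share of calls was 40.4%, 51.3%, 45.8% and 55.5%. The sign of Clcf1, which was never called, changed to 0.051 with median-of-ratios scaling, 0.010 with quantile normalization, 0.085 with totals equalised after removing Msx1, 0.046 with sample weights and 0.215 with its most abundant transcript, and ran from -0.065 to 0.001 when each library was left out. Il1rap went to -0.072 with sample weights and ran from -0.044 to 0.143 when each library was left out. Stat3 went to -0.181 with sample weights and ran from 0.018 to 0.356 when each library was left out. The cause was not tested. Among list counts, JAK-STAT genes called lower numbered 1 with equal totals and 5 with sample weights (3 as reported). CC receptors called higher numbered 5 without a filter and 1 with the stricter filter (3 as reported). Genes called lower in the list around IL-33 and ST2 numbered 5 with the stricter filter (8 as reported). Replicate numbers were not shown to pair the libraries: deviations of same-numbered libraries correlated at 0.06, 0.23 and 0.04 across genes, and control replicate 1 correlated best with Msx1 replicate 3 (0.13). With the replicate number as a block, 2692 genes were higher and 4055 lower, 2 members were higher and 5 lower, and Socs3 (adjusted p = 0.0667) and Il11ra1 (0.0506) were no longer called. Few estimated fragments stand behind Il6 in Msx1 libraries, Il11 and the long Il1rl1 transcript.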
